A study of Mus musculus with 4 samples.

Results

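Conventional dendritic cells type 1 (cDC1) of dystrophic skeletal muscle were examined by their transcripts, and 236 of 31077 cells (0.759%) that passed a barcode filter met the definition. A cell counted as a cDC1 when it held at least 2 unique molecular identifiers (UMIs, each standing for 1 captured transcript) of Xcr1 and Clec9a together and at least 5 of the MHC class II genes H2-Aa and H2-Ab1. It also had fewer than 10 UMIs of the complement genes C1qa, C1qb and C1qc, which mark macrophages, and none of Pdgfra (fibroblasts) or Cdh5 (endothelium). The cells were mononuclear cells from the muscles of mice aged 14 weeks, profiled by 3′ droplet single-cell RNA sequencing in 4 libraries. The libraries came from the quadriceps and the diaphragm of mdx5cv/Ccr2-/- mice and of mdx5cv mice, with 1 library per group. The mdx5cv allele disrupts the dystrophin gene and is used as a model of Duchenne muscular dystrophy, and all 4 groups carry it. The mdx5cv/Ccr2-/- animals also lack Ccr2, the receptor through which inflammatory monocytes follow the chemokine Ccl2 into tissue. Animals per library, the extent of the Ccr2 deletion and the strain background were not stated in the sources at hand.

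cDC1 are the dendritic cells that take up dead cells and cross-present their proteins on MHC class I to CD8 T cells. Clec9a is a receptor for actin exposed on dying cells, and Xcr1 is the receptor for the chemokine Xcl1 made by T and NK cells. The lineage depends on the transcription factors Irf8, Batf3 and Id2, while most type 2 cells (cDC2) depend on Irf4. In mice, cDC1 of tissues commonly carry the integrin CD103, encoded by Itgae, and arise from bone marrow precursors rather than from monocytes.

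There were 51 cDC1 in the mdx5cv/Ccr2-/- quadriceps, 44 in the mdx5cv quadriceps, 39 in the mdx5cv/Ccr2-/- diaphragm and 102 in the mdx5cv diaphragm. Their median depth was 13010, 13991.5, 16727 and 9891 UMIs per cell in the same order, so the mdx5cv diaphragm library was the shallowest. Of the 236 cells, 190 held UMIs of both Xcr1 and Clec9a, 19 held Xcr1 alone and 27 held Clec9a alone. Another 56 cells reached the Xcr1 and Clec9a minimum and were removed by the other conditions, most often by Pdgfra (25) or Cdh5 (22), and a cell could fail several. The 28 members with exactly 2 UMIs of Xcr1 and Clec9a carried Irf8 in 85.7% and Wdfy4 in 85.7% of cells, and 10.7% carried the cDC2 gene Cd209a. The 63 cells just outside, with exactly 1 such UMI, carried Irf8 in 61.9%, Wdfy4 in 46.0% and Cd209a in 38.1% of cells. No cell barcode was a member in more than 1 library, and 2 member barcodes also passed the filter in another library, among 93 barcodes shared in all.

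With 1 library per group, no difference below has a replicate check and none was tested. Levels are counts per 1000000 UMIs (CPM), from the UMIs summed over the cDC1 of a library. Intervals are exact 95% intervals that cover counting error only, treat UMIs as independent and leave out differences between cells, animals and libraries.

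cDC1 markers that took no part in the definition fitted the label. Irf8 stood at 1742, 1747, 1685 and 1771 CPM in the mdx5cv/Ccr2-/- quadriceps, mdx5cv quadriceps, mdx5cv/Ccr2-/- diaphragm and mdx5cv diaphragm. The cDC2 of the same libraries (448 cells with Cd209a and MHC class II UMIs and none of Xcr1 or Clec9a) had 30.1 to 87.5 CPM of Irf8, and macrophages (3678 cells with at least 10 C1q UMIs and none of Xcr1 or Clec9a) had 207 to 287. Wdfy4, a protein needed for cross-presentation of cell-associated antigen in mouse cDC1, had 544, 387, 402 and 404 CPM in cDC1, against 39.0 to 89.5 in cDC2. Batf3 was level over the 4 libraries, at 178, 171, 169 and 179 CPM. Markers of NK cells were at 0 in every library, and markers of T cells and of neutrophils summed to at most 3.01 CPM. Ccr7, the homing receptor of mature dendritic cells, was at 0 in 3 libraries and at 3.01 CPM in the mdx5cv diaphragm. Other lists were not near 0. The 14 genes of a migratory maturation list summed to 362, 199, 252 and 269 CPM in the order of the libraries. Sums ran from 287 to 375 CPM for plasmacytoid dendritic cell markers, 125 to 203 for B cell markers and 64.3 to 139 for cDC2 markers. Macrophage markers summed to 108, 136, 59.7 and 585 CPM in the order of the libraries. Fibroblast markers were also uneven, with a sum of 80.2, 48.9, 1466 and 252 CPM. In the mdx5cv/Ccr2-/- diaphragm, 1 cell held 92.4% of the Col3a1 UMIs, the gene of a fibrillar collagen.

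The genes that stood highest in cDC1 over cDC2 in the lowest of the 4 libraries were a mixture of regulators, sensors and uptake genes. They are a description, since the definition separated the 2 cell types. Irf8 led, followed by Itgae, by Gcsam and by Tlr3, the endosomal sensor of double-stranded RNA. Tlr3 had 238, 217, 239 and 196 CPM in cDC1, against 1.37 to 6.55 in cDC2. Gcsam had no UMI in any cDC2, against 87.4 to 114 CPM in cDC1. Naaa, a lysosomal lipid amidase, ranged from 1002 to 1322 CPM in cDC1, against 165 to 230 in cDC2. Cst3, which encodes the protease inhibitor cystatin C, was the most abundant of the set at 15053, 17155, 18275 and 18471 CPM in cDC1, against 3543 to 4857 in cDC2. S100a4, a calcium-binding protein, ran the other way, with 46.6 to 252 CPM in cDC1 and 2421 to 3159 in cDC2.

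**Figure D1:**
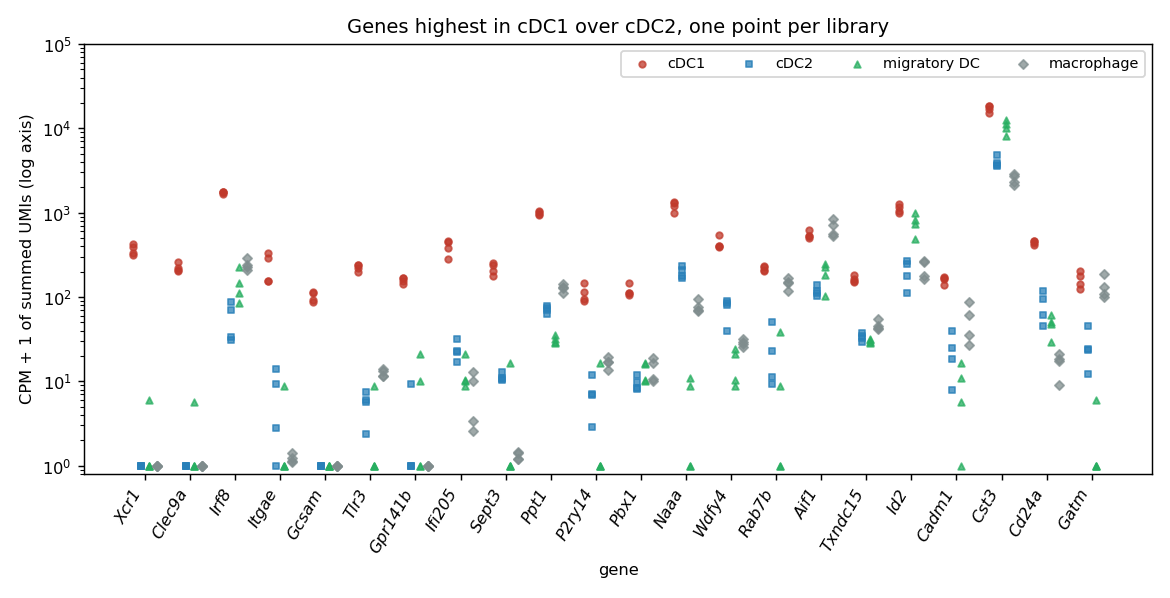
Level of Xcr1, Clec9a and the 20 genes highest in cDC1 over cDC2, as CPM + 1 of summed UMIs on a log axis, with 1 point per library and colours for cDC1, cDC2, migratory dendritic cells and macrophages. The 4 cDC1 points of Irf8 lie between 1685 and 1771 CPM, above every point of the other populations. Xcr1 and Clec9a chose the cells.

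The share of cDC1 among filtered cells was 0.749% (interval 0.558 to 0.983) in the mdx5cv/Ccr2-/- quadriceps, against 0.840% (0.611 to 1.13) in the mdx5cv quadriceps. It was 0.605% (0.431 to 0.826) in the mdx5cv/Ccr2-/- diaphragm and 0.811% (0.661 to 0.983) in the mdx5cv diaphragm. The ratio of mdx5cv/Ccr2-/- to mdx5cv was 0.891 (0.584 to 1.37) for quadriceps and 0.746 (0.502 to 1.09) for diaphragm, so neither difference exceeded its counting error. cDC2 had lower ratios, 0.682 (0.504 to 0.921) in quadriceps and 0.50 (0.363 to 0.676) in diaphragm. Macrophages did as well, with 0.614 (0.557 to 0.677) and 0.487 (0.435 to 0.544). The difference in ratio between cDC1 and these cells was not tested. For every 100 cDC2 there were 59.3 cDC1 in the mdx5cv/Ccr2-/- quadriceps and 45.4 in the mdx5cv quadriceps, and 72.2 in the mdx5cv/Ccr2-/- diaphragm against 48.3 in the mdx5cv diaphragm.

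Among cells with a UMI of Ptprc, the CD45 gene of leukocytes, the order of the genotypes turned round. cDC1 made up 3.36% (2.51 to 4.39) of them in the mdx5cv/Ccr2-/- quadriceps and 2.37% (1.73 to 3.17) in the mdx5cv quadriceps, a ratio of 1.42. They made up 3.78% (2.69 to 5.15) in the mdx5cv/Ccr2-/- diaphragm and 2.88% (2.35 to 3.50) in the mdx5cv diaphragm, a ratio of 1.31. The intervals of the genotypes overlapped in each muscle, so this order was not set apart from counting error either. Shares sum to a whole, and the absolute number of cDC1 per muscle was not measured. The definition counts UMIs and so depends on depth. Cells with at least 3000 UMIs were therefore thinned to 3000, and the definition was applied anew to the thinned counts. Shallower cells left the total and cells excluded at full depth could enter, so the set differs from that above. In it 34, 22, 16 and 50 cDC1 met the definition. The ratio of shares was then 1.20 in the quadriceps and 0.578 in the diaphragm.

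**Figure D2:**
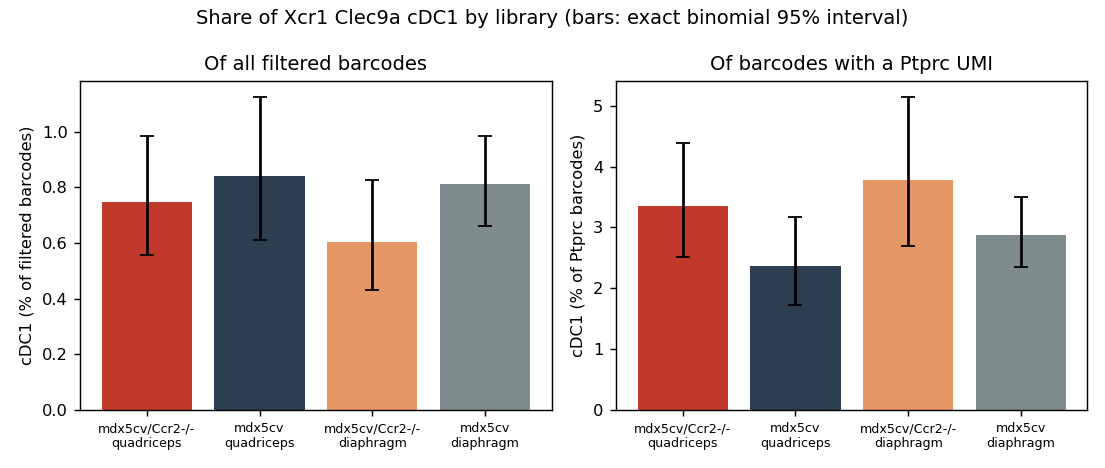
Share of cDC1 by library as a percent of all filtered barcodes (left) and of barcodes with a Ptprc UMI (right), with exact binomial 95% intervals as error bars. The intervals of the genotypes overlap within each muscle. Shares run from 0.605% to 0.840% of all barcodes and from 2.37% to 3.78% of Ptprc barcodes.

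Ccr2 transcripts were lower in the cDC1 of mdx5cv/Ccr2-/- mice but were still counted, at 111 CPM in the mdx5cv/Ccr2-/- quadriceps against 520 in the mdx5cv quadriceps. In the diaphragm the level was 128 CPM in mdx5cv/Ccr2-/- and 471 in mdx5cv. The ratios were 0.214 (0.165 to 0.276) and 0.272 (0.214 to 0.342). After thinning, 33.3% of cDC1 in each mdx5cv/Ccr2-/- library held a Ccr2 UMI, against 68.2% in the mdx5cv quadriceps and 61.9% in the mdx5cv diaphragm, while fibroblasts held one in 0.0621% to 1.12% of cells. Ccr2 in cDC2 had 158 and 130 CPM in the mdx5cv/Ccr2-/- quadriceps and diaphragm, against 702 and 724 in the mdx5cv muscles. Macrophages had 39.1 and 29.1 CPM in the mdx5cv/Ccr2-/- quadriceps and diaphragm, against 489 and 511 in the mdx5cv muscles. Whether the remaining 3′ UMIs lie outside the deleted part cannot be told from these files.

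Outside the genes of the definition, 2307 genes were measured, with a mean of at least 50 CPM and at least 50 UMIs in all. In the quadriceps 32 of them (1.39%) were more than 2-fold higher and 21 (0.91%) more than 2-fold lower in mdx5cv/Ccr2-/- than in mdx5cv cDC1, 2.3% in either direction. In the diaphragm 13 (0.564%) were higher and 26 (1.13%) lower, 1.69% together. In both muscles at once 6 genes (0.26%) were higher, 12 (0.52%) lower and none went opposite ways. The 12 lower genes were 57.1% of those lower in the quadriceps and 46.2% of those lower in the diaphragm. The median log2 ratio of all measured genes, with 5 CPM added to each level, was 0.05 in the quadriceps and 0.01 in the diaphragm.

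The counts rest in part on single cells. When the highest cell of each library was left out for each gene, 8 of the 12 lower genes stayed past 2-fold in both muscles: Ccr2, Cxcl9, Ifi203, Ifi209, Mndal, Ifi27l2a, Ifitm3 and Irf7. Other alternatives took 3 of these 8 short of 2-fold in a muscle: by mean CPM per cell the log2 ratio of Ifi27l2a was -0.95 in the quadriceps and that of Ifi209 was -0.93 in the diaphragm, and Irf7 is given with the interferon list. The remaining 4 lower genes were Apoe, Ly6a, Ly6c2 and Ube2c. In the mdx5cv diaphragm 1 cell held 84.3% of the Apoe UMIs and 1 cell held 89.0% of those of Ly6c2, a marker of monocytes. Of the 6 higher genes only Ifi202b stayed. Ccl17, a chemokine of mature dendritic cells, was counted in 2, 1, 1 and 4 cells of the 4 libraries, and 1 cell held 93.5% of the Cd63 UMIs in the mdx5cv/Ccr2-/- quadriceps and 87.7% in the mdx5cv/Ccr2-/- diaphragm. Sparc, Hes1 and Tagln were the rest. Ifi202b, Hes1, Tagln, Ly6a and Ube2c, and elsewhere Isg15, Rsad2, Stat2, Cxcl10, H2-Oa, Fos, Ifit2, Zbp1, Parp14 and the Ifi200 genes Ifi204, Ifi207, Ifi211 and Aim2, were named after their values were seen. The monocyte marker sum was 493 against 1403 CPM in the quadriceps and 636 against 1448 CPM in the diaphragm, mdx5cv/Ccr2-/- before mdx5cv. All of its UMIs came from Ccr2, Plac8 and Ly6c2. Ccr2 and Ly6c2 are among the 12 lower genes, so the sum is no separate measure of monocytes. The part of monocytes in the gene ratios was not tested.

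**Figure D3:**
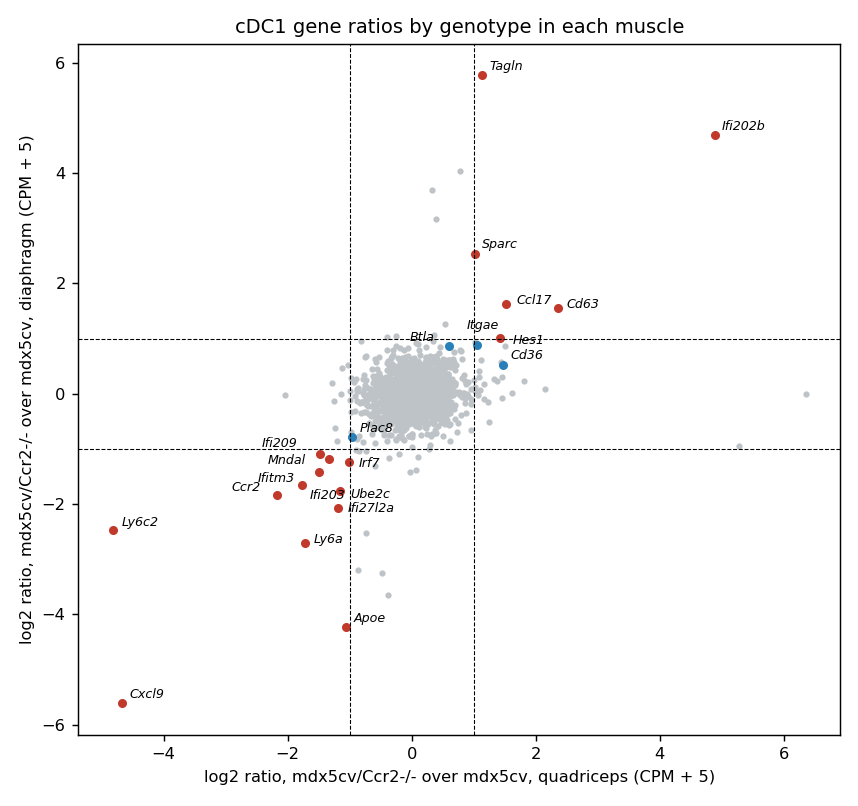
Log2 ratio of mdx5cv/Ccr2-/- over mdx5cv cDC1 in the quadriceps (horizontal) and the diaphragm (vertical), with 5 CPM added to each level, for 2307 measured genes in grey. Red points are the 18 genes past 2-fold in the same direction in both muscles, blue points are 4 other genes given in the text, and dashed lines mark 2-fold. Ifi202b is at the upper right and Cxcl9 at the lower left.

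Among surface receptors, Itgae (chr11:73090583-73147446, plus strand, GRCm38) was higher in the cDC1 of mdx5cv/Ccr2-/- mice in both muscles. Its level was 330 CPM (288 to 376) in the mdx5cv/Ccr2-/- quadriceps, against 156 (127 to 189) in the mdx5cv quadriceps, and the ratio came to 2.12 (1.67 to 2.70). For diaphragm cells it was 288 CPM (250 to 331) in mdx5cv/Ccr2-/- and 155 (131 to 181) in mdx5cv, a ratio of 1.86 (1.5 to 2.32). Both mdx5cv/Ccr2-/- libraries thus lay above both mdx5cv libraries, and only the quadriceps passed 2-fold. Itgae was spread over many cells: 42 of 51 in the mdx5cv/Ccr2-/- quadriceps held it against 22 of 44 in the mdx5cv quadriceps, and 34 of 39 in the mdx5cv/Ccr2-/- diaphragm against 57 of 102 in the mdx5cv diaphragm. After thinning the shares came closer, at 49.0% and 31.8% in the quadriceps of mdx5cv/Ccr2-/- and mdx5cv, and 51.3% and 35.1% in the diaphragm, and their intervals overlapped. Fibroblasts held an Itgae UMI in at most 0.131% of cells. Over 11 alternative settings the log2 ratio of Itgae lay between 0.99 and 1.18 for quadriceps and between 0.74 and 0.99 for diaphragm.

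Btla, an inhibitory receptor of lymphocytes and cDC1, had the same order with 190 and 124 CPM in the mdx5cv/Ccr2-/- and mdx5cv quadriceps and 192 and 104 CPM in the diaphragm. Its ratios were 1.54 (1.15 to 2.05) and 1.86 (1.42 to 2.43), short of 2-fold. Plac8, which is abundant in monocytes, had the opposite order at 382 against 747 CPM in the quadriceps and 489 against 849 in the diaphragm, mdx5cv/Ccr2-/- given before mdx5cv. Its log2 ratio of -0.96 in the quadriceps came to -0.36 when UMIs of both Xcr1 and Clec9a were required. The scavenger receptor Cd36 stood at 322 CPM in the mdx5cv/Ccr2-/- quadriceps, against 113 in the mdx5cv quadriceps. In the mdx5cv/Ccr2-/- quadriceps 1 cell held 47.9% of its UMIs, and the log2 ratio of 1.47 came to 0.58 when at least 3 UMIs of Xcr1 and Clec9a were required.

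Xcr1 and Clec9a chose the cells, so each was read in the cells chosen by the other. In cells with at least 2 Clec9a UMIs, Xcr1 had 391 CPM (333 to 455) in the mdx5cv/Ccr2-/- quadriceps, against 345 (299 to 395) in the mdx5cv quadriceps. In the diaphragm it had 423 (371 to 480) in mdx5cv/Ccr2-/- and 277 (236 to 323) in mdx5cv. In cells with at least 2 Xcr1 UMIs, Clec9a had 219 and 252 CPM in the quadriceps of mdx5cv/Ccr2-/- and mdx5cv, and 198 and 188 CPM in the diaphragm. Xcr1 lies near Ccr2 on chromosome 9 (chr9:123852315-123862029, minus strand, against chr9:124101950-124113557, plus strand, GRCm38).

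The 28 genes of a type I interferon response list summed to a lower level in mdx5cv/Ccr2-/- cDC1, at 1888 against 3089 CPM in the quadriceps and 1319 against 2849 CPM in the diaphragm, mdx5cv/Ccr2-/- before mdx5cv. With no filter on level, 28 of the 28 had a log2 ratio below 0 in the quadriceps and 27 of 28 in the diaphragm, against 43.2% and 49.2% of all measured genes. The measured genes had passed the filter and the 28 did not have to, so these shares cover unlike sets. Only 14 passed the filter of 50 CPM, and 5 of these (Ifit2, Irf7, Rsad2, Zbp1 and Parp14) had a mean under 50 CPM in mdx5cv/Ccr2-/- and passed through their mdx5cv level. The filter thus favoured genes higher in mdx5cv, and the counts and medians of the 14 are a description. Their median was -0.67 in the quadriceps and -1.04 in the diaphragm. More than 2-fold lower were 3 of the 14 in the quadriceps, against 0.91% of all measured genes, and 8 in the diaphragm, against 1.13%, and these 8 include the 5 named. Ifi209, a gene of the Ifi200 family taken up below, was among the 3 and among the 8. Without the highest cell of each library the medians were -0.82 and -0.67, over the 10 members still measured. Ifi27l2a, a small mitochondrial interferon-induced protein, had 244 CPM in the mdx5cv/Ccr2-/- quadriceps and 559 in the mdx5cv quadriceps, and 182 against 785 in the diaphragm. Irf7, a transcription factor of the interferon feedback loop, had 43.1 against 91.7 CPM in the quadriceps and 46.6 against 117 in the diaphragm. It was counted in 11 and 15 cells of the quadriceps and in 9 and 32 cells of the diaphragm, mdx5cv/Ccr2-/- before mdx5cv. In cells chosen by Clec9a alone its log2 ratio was -0.69 in the quadriceps and -0.92 in the diaphragm, short of 2-fold in both.

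Some members of the list were set by few cells. Rsad2, which encodes the antiviral enzyme viperin, had 69.8 CPM in the mdx5cv/Ccr2-/- quadriceps, where 1 cell held 97.9% of its UMIs, against 99.4 in the mdx5cv quadriceps, where 1 cell held 72.3%. Isg15, a ubiquitin-like modifier, had 125 against 191 CPM in the quadriceps and 58.2 against 153 in the diaphragm. Ifitm3, which blocks entry of viruses and was not on the list, had 169 CPM in the mdx5cv/Ccr2-/- quadriceps and 489 in the mdx5cv quadriceps, and 165 against 446 in the diaphragm. In the mdx5cv/Ccr2-/- quadriceps 1 cell held 57 of its 114 UMIs.

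The lower interferon genes were not limited to cDC1. The same 14 genes had a median log2 ratio of -0.88 in cDC2, -0.94 in macrophages and -0.61 in all quadriceps cells other than cDC1. In the diaphragm the medians were -0.47, -0.94 and -0.42. All 14 genes were below 0 in all of these quadriceps populations. Ifi209 was the lowest of them in quadriceps macrophages, at -2.07, and in all quadriceps cells other than cDC1, at -2.02. In the diaphragm 12 were in cDC2 and 13 in macrophages. The difference between cDC1 and these populations was not tested.

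Several of these genes carry a sequence that resembles the interferon-stimulated response element, a promoter element of many interferon-induced genes. The motif GAAANNGAAA was searched on either strand, matches overlapping, in the 250 bases upstream of RefSeq start sites (GRCm38.p6). It was found for 936 of 27025 genes (3.46%), for 7 of the 10 measured interferon list members with a promoter in the table (70%), and for 3 of 14 of the genes highest over cDC2. A match is a run of letters and says nothing of binding in these cells. The following windows are shown because their genes belong to the list or were lower in both muscles. They read 5′ to 3′ on the gene's strand, with the match in capitals.
Isg15, chr4:156200856-156200915, minus strand: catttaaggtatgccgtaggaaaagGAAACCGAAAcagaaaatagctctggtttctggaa
Rsad2, chr12:26456538-26456597, minus strand: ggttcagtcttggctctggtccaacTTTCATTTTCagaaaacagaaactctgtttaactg
Stat2, chr10:128270251-128270310, plus strand: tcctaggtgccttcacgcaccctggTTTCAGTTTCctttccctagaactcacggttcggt
Bst2, chr8:71537562-71537621, minus strand: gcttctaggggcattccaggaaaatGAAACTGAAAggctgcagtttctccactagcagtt
Ifi203, chr1:173942493-173942552, minus strand: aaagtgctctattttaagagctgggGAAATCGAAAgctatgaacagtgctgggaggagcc
Mndal, chr1:173880189-173880248, minus strand: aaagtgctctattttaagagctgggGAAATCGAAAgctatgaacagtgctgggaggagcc

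The Ifi200 family on chromosome 1, whose proteins sense or bind DNA, was not a fixed list and was read after its values were seen. Of its 9 measured members, 3 were more than 2-fold lower and 1 more than 2-fold higher in mdx5cv/Ccr2-/- in both muscles, and 5 did neither. Ifi203 had 84.7 CPM in the mdx5cv/Ccr2-/- quadriceps and 300 in the mdx5cv quadriceps (ratio 0.283, interval 0.207 to 0.381), and 69.9 against 230 in the diaphragm, a ratio of 0.304 (0.218 to 0.416). Mndal had 98.0 against 255 CPM and 112 against 260 CPM, and Ifi209 had 63.9 against 188 and 71.4 against 158, quadriceps before diaphragm and mdx5cv/Ccr2-/- before mdx5cv. In each of these genes both mdx5cv/Ccr2-/- libraries lay below both mdx5cv libraries. Ifi209 is also on the type I interferon list, so its values count in that list as well. The 3 genes were lower in all cells other than cDC1 as well. There the log2 ratios in the quadriceps and the diaphragm were -0.42 and -0.58 for Ifi203, -0.86 and -0.84 for Mndal, and -2.02 and -1.47 for Ifi209. Ifi202b had the reverse pattern, with 143 CPM in 31 cells of the mdx5cv/Ccr2-/- quadriceps and 124 CPM in 29 cells of the mdx5cv/Ccr2-/- diaphragm, and no UMI in either mdx5cv library. Against the level that 3 UMIs per library would give, it was at least 31.1-fold higher in the quadriceps and at least 41.1-fold higher in the diaphragm. The same held outside cDC1: in thinned fibroblasts 37.8% and 38.5% of cells held an Ifi202b UMI in the mdx5cv/Ccr2-/- quadriceps and diaphragm, against none in the mdx5cv quadriceps and 0.0219% in the mdx5cv diaphragm. Ifi205, one of the genes highest over cDC2, had 279 against 459 CPM in the quadriceps and 380 against 443 in the diaphragm. The log2 ratios in the quadriceps and the diaphragm were -0.53 and -0.58 for Ifi207, -0.35 and -0.05 for Ifi211, -0.37 and -1.17 for Ifi204, and 0.07 and -0.49 for Aim2. The family members are near-identical in places, and the annotated spans of Mndal and Ifi203 overlap on 1 strand. The counts of single members may thus depend on how such reads were assigned or left out. The printed windows of Mndal and Ifi203 share the same letters and lie upstream of RefSeq start sites. By the GENCODE positions each lies inside the annotated span of its gene, so the annotations differ here. The windows were not compared with the reads. With the strain background not stated, genotype and background at this locus cannot be told apart.

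Cxcl9, a chemokine that recruits Cxcr3-bearing T cells, was nearly absent from mdx5cv/Ccr2-/- cDC1 and rested on few cells in mdx5cv. It had 1 UMI in 1 cell of the mdx5cv/Ccr2-/- quadriceps, against 105 UMIs in 3 cells of the mdx5cv quadriceps. In the diaphragm 1 UMI in 1 cell of mdx5cv/Ccr2-/- stood against 310 UMIs in 16 cells of mdx5cv. The ratios were 0.00925 (0.000232 to 0.0527) and 0.00468 (0.000118 to 0.0262). After thinning, 0% of cDC1 held Cxcl9 in each mdx5cv/Ccr2-/- library, with an upper limit of 6.98% in the quadriceps and 9.03% in the diaphragm. The share was 4.55% (0.555 to 15.5) in the mdx5cv quadriceps and 10.3% (5.06 to 18.1) in the mdx5cv diaphragm. Thinned fibroblasts held it in 10.0%, 6.93%, 4.07% and 4.62% of cells in the order of the libraries, so only the mdx5cv diaphragm cDC1 stood above the fibroblasts of their library. Cxcl10, a second ligand of Cxcr3, had 114 against 151 CPM in the quadriceps and 4.37 against 112 CPM in the diaphragm.

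**Figure D4:**
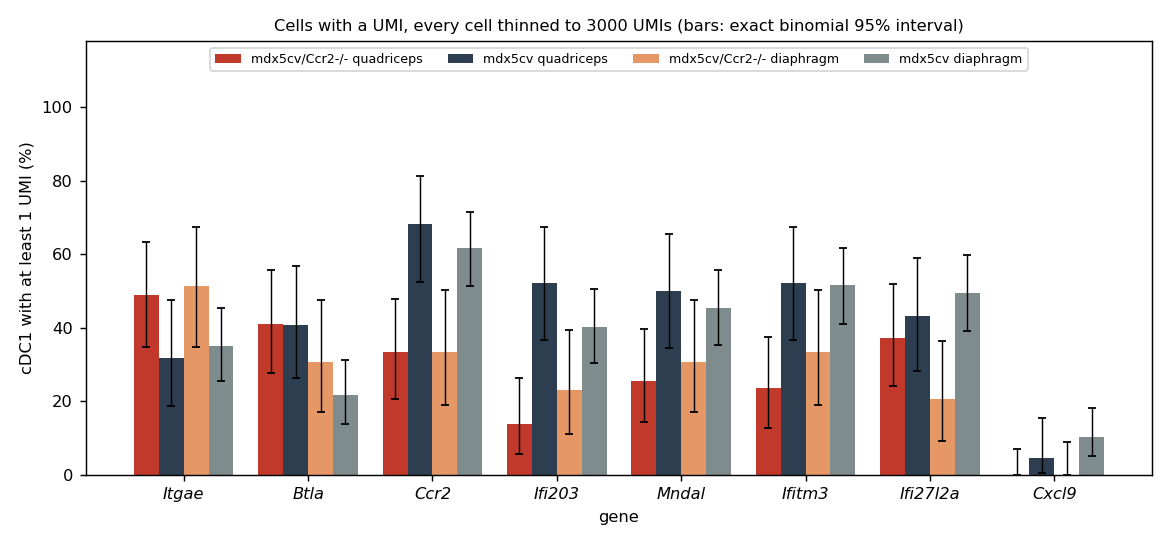
Percent of cDC1 with at least 1 UMI of each gene, by library, with exact binomial 95% intervals. Every cDC1 with at least 3000 UMIs was thinned to 3000 UMIs. Itgae stands at 49.0% and 51.3% in the mdx5cv/Ccr2-/- libraries against 31.8% and 35.1% in the mdx5cv libraries, and Ccr2 and Ifi203 run the other way.

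The antigen presentation machinery differed little by genotype. The 10 measured MHC class II genes outside the definition had a median log2 ratio of 0.01 in the quadriceps and -0.08 in the diaphragm, and only H2-Oa, a modulator of peptide loading, reached 2-fold, in the diaphragm. Cd74, the invariant chain, had 16132 against 16179 CPM in the quadriceps and 13292 against 14208 in the diaphragm, mdx5cv/Ccr2-/- before mdx5cv. The 17 measured genes of MHC class I and cross-presentation had medians of -0.17 and -0.06, and none passed 2-fold. Of the 17, 10 were below 0 in both muscles and 2 above 0 in both. Among all measured genes, 43.2% were below 0 in the quadriceps and 49.2% in the diaphragm, and the difference was not tested. B2m, the light chain of MHC class I, had 1064 against 1211 CPM in the quadriceps and 1198 against 1133 in the diaphragm. The 17 measured cDC1 identity genes had medians of 0.09 and 0.19. Of these, Itgae and Cd36 passed 2-fold in the quadriceps, and none did in the diaphragm.

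Mki67 and Top2a, a pair of genes of dividing cells, were found together in part of the cDC1. This held for 9 of 51 cells (17.6%) in the mdx5cv/Ccr2-/- quadriceps, 5 of 44 (11.4%) in the mdx5cv quadriceps, 8 of 39 (20.5%) in the mdx5cv/Ccr2-/- diaphragm and 16 of 102 (15.7%) in the mdx5cv diaphragm. After thinning the shares were 9.80%, 6.82%, 15.4% and 8.25%, against 0.110% to 1.68% in thinned fibroblasts. Thinned cDC2 had 8.24%, 3.19%, 14.8% and 6.6% in the same order of libraries, and the difference from cDC1 was not tested. The 11 measured cell cycle genes had a median log2 ratio of 0.04 in the quadriceps and -0.06 in the diaphragm, and none passed 2-fold. The numbers of such cells were too small to order the libraries.

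Between muscles, the diaphragm cDC1 held more transcripts of a list of 16 immediate early and heat shock genes known to be induced by tissue dissociation. All 16 had a higher level in the diaphragm in both genotypes, with a median log2 ratio of 1.19 in each. Past 2-fold were 11 in mdx5cv/Ccr2-/-, against 2.17% of all measured genes, and 10 in mdx5cv, against 2.51%. Their summed level was 15281 CPM in the diaphragm and 7108 in the quadriceps of mdx5cv/Ccr2-/-, and 17623 against 9179 in mdx5cv. Of the 2307 measured genes, 50 (2.17%) were more than 2-fold higher and 24 (1.04%) lower in the diaphragm than in the quadriceps of mdx5cv/Ccr2-/- mice, 3.21% together. In mdx5cv mice 58 (2.51%) were higher and 5 (0.217%) lower, 2.73% together. In both genotypes 28 (1.21%) were higher, 3 (0.13%) lower and 1 (0.0433%) went opposite ways, and 21 of the 28 stayed when the highest cell of each library was left out. Il1b, the inflammatory cytokine, had 424 CPM in the mdx5cv/Ccr2-/- diaphragm and 46.0 in the mdx5cv/Ccr2-/- quadriceps, and the ratio was 9.20 (6.34 to 13.8). In mdx5cv it had 247 CPM in the diaphragm and 24.5 in the quadriceps, and the ratio was 10.1 (6.1 to 18). It was counted in 20 and 31 cells of the diaphragm libraries, against 7 and 6 cells of the quadriceps libraries.

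Nfkbia, the inhibitor that NF-kappaB itself induces, had 342 CPM in the diaphragm and 71.3 in the quadriceps of mdx5cv/Ccr2-/- mice, and 349 against 99.4 in mdx5cv mice. The chemokine Ccl4 had 227 against 32.7 CPM and 613 against 33.6 CPM, diaphragm before quadriceps and mdx5cv/Ccr2-/- before mdx5cv. Nfkbia was higher in the diaphragm in cDC2 as well, at 1097 and 880 CPM against 379 and 377, and in macrophages, at 371 and 467 against 166 and 170. So was Ccl4, at 608 and 707 CPM against 318 and 583 in cDC2, and at 365 and 563 against 150 and 172 in macrophages. The part of tissue preparation in these values was not tested. Dcn and Sparc, which fibroblasts make, were also among the higher genes, and both dropped out without the highest cell of each library. S100a4 was lower in the diaphragm, with 46.6 against 107 CPM in mdx5cv/Ccr2-/- and 88.4 against 252 in mdx5cv, and it was the lower gene that stayed without the highest cell.

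**Figure D5:**
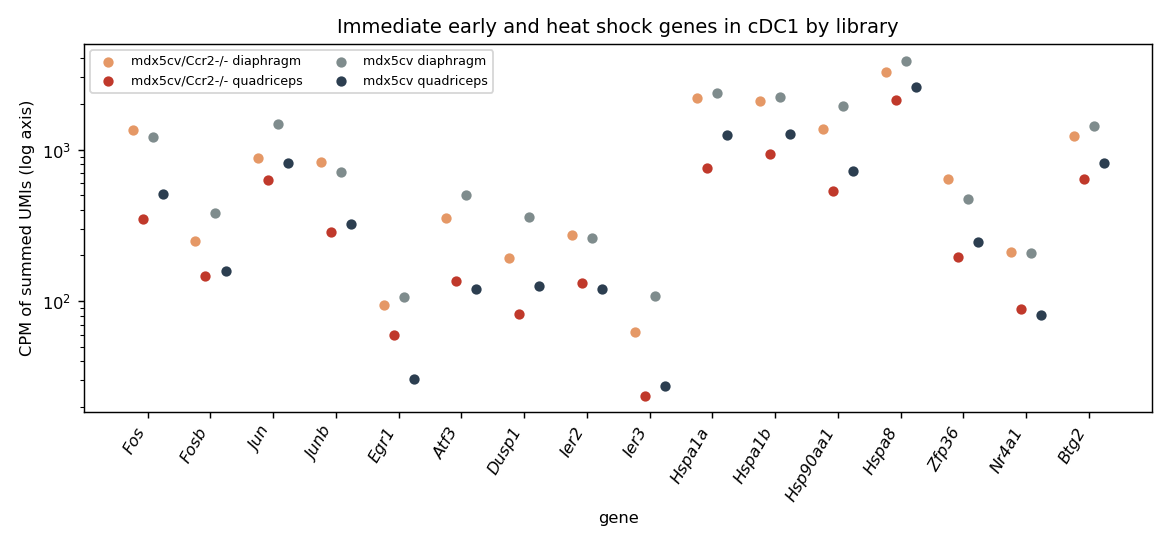
CPM of summed cDC1 UMIs on a log axis for the 16 genes of the dissociation list, with 1 point per library and the diaphragm left of the quadriceps within each genotype. In every gene the diaphragm point lies above the quadriceps point of its genotype. For Fos it lies at 1345 against 349 CPM in mdx5cv/Ccr2-/- and at 1213 against 507 CPM in mdx5cv.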

How the data were processed

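Raw UMI counts per gene and barcode were deposited by the authors, without normalization. Per the file headers Cell Ranger 6.1.2 made them, and the submitters' processing notes name build mm10. The libraries held 56399477 to 92189580 UMIs and 33554 barcodes over 32285 genes. The barcode filter asked for 500 UMIs, 300 genes and no more than 15% of UMIs from mitochondrial genes. Doublets stayed in. The members with a high score from the Scrublet function of scanpy 1.11.5 (4 cells, at an assumed doublet rate scaled to the number of barcodes) were left out as an alternative.

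Member UMIs were summed per library, scaled to CPM and compared as log2 ratios with 5 CPM added. Called means past 2-fold. Shares carry exact binomial (Clopper-Pearson) intervals, CPM exact Poisson intervals and ratios exact conditional binomial intervals at 95% (scipy 1.17.1, numpy 2.4.6, pandas 2.3.3, Python 3.11.15). The ratio step was tested on simulated counts, drawn independently for each gene (Poisson). That test holds no spread between cells, so it does not cover genes carried by few cells. A level of 0 was taken to allow 3 UMIs. For shares of cells with a UMI, each cell was thinned to 3000 UMIs at random, and 5 members, all from the mdx5cv diaphragm, were too shallow. Scaling factors by the trimmed mean of M-values (TMM) came from edgeR 4.0.16. Gene positions came from GENCODE M21 (GRCm38), which held 32158 of the genes, and promoters from RefSeq (GRCm38.p6).

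The members and the 27 gene lists were chosen with earlier results of these data known, and 5 list symbols were not used here. Named genes were, by rule, those past 2-fold in both muscles with a mean of at least 100 CPM, the 20 highest over cDC2, up to 4 of each list by level with any list member past 2-fold in both muscles, 5 in each direction between muscles, and Ccr2, Xcr1 and Clec9a. Alternatives changed the definition of the cells, the filters, the scaling, the pseudocount and the weighting of cells. Leaving out the highest cell per gene was added after seeing the data.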

Additional observations from a re-analysis of the deposited data

Results flagged for a closer look

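Lpl, the gene of lipoprotein lipase, was past 2-fold in opposite directions between the muscles of the 2 genotypes. Its log2 ratio of diaphragm over quadriceps was -5.05 in mdx5cv/Ccr2-/- and 1.16 in mdx5cv, and the difference was not tested. The mdx5cv/Ccr2-/- diaphragm had 3 UMIs, against 206 in the mdx5cv/Ccr2-/- quadriceps, all in 1 cell. The mdx5cv diaphragm had 13 UMIs, against 2 in the mdx5cv quadriceps.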

How the results depend on the processing

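No paired analysis was possible because the groups share only replicate number 1. A fit of the 4 libraries with muscle as a block for genotype, with 1 degree of freedom left over, was not made. Depth and cell number limit every value: 39 to 102 cells per library were summed, and counting intervals do not cover differences between cells. Ratios of shares moved beyond their intervals in 4 of 32 cases: diaphragm over quadriceps came to 0.630 in mdx5cv with Clec9a alone and to 0.447 in mdx5cv/Ccr2-/- after thinning, and mdx5cv/Ccr2-/- over mdx5cv to 1.42 and 1.31 among Ptprc barcodes.

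Of the counts of genes past 2-fold, 39 of 144 moved by over 1.5 times. Genes higher in both muscles by genotype numbered 3 with at least 3 Xcr1 and Clec9a UMIs, with both genes required, without high Scrublet scores and with 20 CPM added, and 2 by mean CPM per cell. With both genes required, diaphragm over quadriceps lower calls were 11 in mdx5cv/Ccr2-/- and 0 in both genotypes. With Clec9a alone, 25 genes were higher by genotype in the diaphragm, 12 were lower in the diaphragm of mdx5cv and 6 were lower in both genotypes. With C1q UMIs below 3, 5 were lower between muscles in both genotypes. Without high Scrublet scores, 7 were higher by genotype in the diaphragm. With 20 CPM added, genotype calls were 18 higher and 13 lower in the quadriceps and 8 higher in the diaphragm, and 13 were lower in the diaphragm of mdx5cv/Ccr2-/-. By mean CPM per cell, 14 and 9 were lower in the diaphragm of mdx5cv/Ccr2-/- and mdx5cv, and 5 in both. With no filter on low levels, genotype calls were 378 higher and 288 lower in the quadriceps, 367 and 331 in the diaphragm, and 29 and 38 in both. Muscle calls were then 534 and 310 in mdx5cv/Ccr2-/-, 408 and 213 in mdx5cv, and 75 and 18 in both. Without the highest cell per gene, 20 were higher by genotype in the quadriceps, 2 higher and 17 lower in the diaphragm, and 1 higher in both. Between muscles 33 were then higher and 9 lower in mdx5cv/Ccr2-/-, 2 lower in mdx5cv and 1 lower in both. The median of the phagocytosis list in the diaphragm was -0.38 with both genes required, against -0.20.

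Reversed genes were those carried by few cells. The genotype ratio in the quadriceps came to -0.22 and -0.037 for Ccl17 and to -0.81 and -0.89 for Cd63 with at least 3 UMIs and with both genes required, and diaphragm over quadriceps in mdx5cv/Ccr2-/- to 0.12 and 0.026 for Ccl17. Without high Scrublet scores, the genotype ratio in the diaphragm was -0.42 for Sparc, -0.61 for Cd63 and -0.0096 for Col3a1, and Col1a1 between muscles in mdx5cv/Ccr2-/- was -0.0025. Without the highest cell, the genotype ratio was -0.025 for Cd63 in the quadriceps, and -2.21 for Ccl17, -0.50 for Sparc, -0.47 for Cd63 and -0.091 for Col3a1 in the diaphragm, and Ccl17 between muscles in mdx5cv was 2.21. The interferon list stayed below 0 over 11 alternatives, between -0.86 and -0.44 for quadriceps and between -1.09 and -0.66 for diaphragm.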
